A study of Mus musculus with 12 samples.

Results

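The cells described here are those caught in division in 12 mouse mammary tumours, whatever their lineage. The members were chosen by their own expression: a cell was counted as dividing when it held at least 3 unique molecular identifiers (UMIs, each standing for 1 captured transcript) summed over Mki67, Top2a, Cdk1, Ccnb2, Tpx2, Birc5, Ccna2 and Ube2c, with at least 2 of these 8 genes detected. Among the 7366 cells with at least 200 detected genes, 462 met this rule, or 6.27%. The tumours came from mice of the FVBN background that carried an MMTV-Cre transgene and the HER2 Crainbow construct, in which Cre turns on 1 of several colour-tagged forms of the ERBB2-encoded receptor tyrosine kinase HER2. All mice were untreated and 15 to 21 weeks old. Nulliparous mice gave 3 tumours with the d16 form of HER2 and 5 with the p95 form, and multiparous mice gave 4 tumours whose HER2 form is labelled unknown. By histology, d16 tumour 1 and multiparous tumours 2 and 4 were solid nodular, multiparous tumours 1 and 3 were mixed, and the other 7 were metaplastic. The MMTV promoter acts mainly in mammary epithelium, so blood and connective tissue cells of these tumours are host cells that need not carry the active transgene. The labels do not say whether each tumour came from its own animal, so the p values below measure the spread between tumours only.

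In cycling cells, E2F factors switch on the genes of DNA replication before S phase, and the DREAM and MuvB complexes, with B-Myb and FoxM1, control the genes of mitosis that peak later. All 8 genes of the rule belong mainly to the later wave. Cdk1 is the mitotic kinase, Ccna2 and Ccnb2 are cyclins that activate it, Top2a disentangles sister DNA, and Tpx2 and Birc5 act on the spindle and in the chromosomal passenger complex. Ube2c passes ubiquitin to targets of the anaphase-promoting complex, and Mki67 coats mitotic chromosomes. Cells in early S phase and resting cells can both lack these transcripts.

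The sequence before the start sites of these genes was searched for elements tied to the control of mitotic genes. Promoters of many mitotic genes hold 2 kinds of element, the cell cycle genes homology region (CHR, letters TTTGAA or TTCGAA), through which MuvB complexes bind, and the CCAAT box, bound by NF-Y. Both were searched on both strands, so that TTCAAA and ATTGG mark elements on the opposite strand, and TTCGAA reads the same on either. RefSeq windows of GRCm38.p6 were matched for 6 of the 8 genes. The 200 bases before each start are shown with the elements in capitals, because their number and spacing differ between genes and Birc5 holds none.
Mki67: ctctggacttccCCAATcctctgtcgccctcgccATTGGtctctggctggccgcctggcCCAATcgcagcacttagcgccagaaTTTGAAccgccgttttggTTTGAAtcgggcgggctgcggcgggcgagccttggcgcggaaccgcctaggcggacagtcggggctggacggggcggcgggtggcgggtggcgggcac
Top2a: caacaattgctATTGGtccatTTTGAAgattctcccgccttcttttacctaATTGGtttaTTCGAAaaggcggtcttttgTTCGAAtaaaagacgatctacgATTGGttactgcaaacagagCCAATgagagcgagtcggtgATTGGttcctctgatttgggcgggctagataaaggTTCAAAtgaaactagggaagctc
Cdk1: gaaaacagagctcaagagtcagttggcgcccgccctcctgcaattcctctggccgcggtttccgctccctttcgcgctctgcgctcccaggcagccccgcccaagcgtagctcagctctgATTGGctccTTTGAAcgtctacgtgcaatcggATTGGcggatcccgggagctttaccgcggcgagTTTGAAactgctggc
Ccnb2: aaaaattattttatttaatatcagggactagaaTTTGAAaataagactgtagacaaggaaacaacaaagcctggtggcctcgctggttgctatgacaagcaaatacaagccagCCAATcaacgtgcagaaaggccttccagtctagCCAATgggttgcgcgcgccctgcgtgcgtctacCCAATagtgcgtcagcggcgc
Ube2c: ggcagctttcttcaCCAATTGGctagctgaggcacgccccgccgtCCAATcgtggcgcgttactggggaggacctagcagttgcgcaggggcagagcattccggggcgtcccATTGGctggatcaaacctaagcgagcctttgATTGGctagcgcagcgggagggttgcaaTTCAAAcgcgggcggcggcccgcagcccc
Birc5: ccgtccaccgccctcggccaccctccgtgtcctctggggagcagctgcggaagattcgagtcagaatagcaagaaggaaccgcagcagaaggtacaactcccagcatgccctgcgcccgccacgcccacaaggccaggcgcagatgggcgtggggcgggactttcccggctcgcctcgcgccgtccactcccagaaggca
These stretches lie at chr7:135716380-135716579 (Mki67, minus strand), chr11:99024190-99024389 (Top2a, minus strand), chr10:69352913-69353112 (Cdk1, minus strand), chr9:70421555-70421754 (Ccnb2, minus strand), chr2:164769729-164769928 (Ube2c, plus strand) and chr11:117849037-117849236 (Birc5, plus strand). In Ube2c a CCAAT and an ATTGG overlap in the run CCAATTGG. Over windows of 300 bases around the start, a CHR sequence was found in 5 of the 6 genes, against 19.4% of 27025 genes of the same table. CCAAT was found in 5 of 6 against 37.9%, and both together in 5 of 6 against 7.7%. Among 62 other genes of the spindle, kinetochore and mitotic exit lists, 67.7% held a CHR sequence, and among 39 genes of replication 25.6% did. A match of letters is a description and not evidence of binding.

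Within the dividing cells, Ube2c was detected most often, in 66.9% of cells, followed by Birc5 in 63.6%, Top2a in 63.4% and Cdk1 in 55.8%. Ccnb2 was detected in 47.4%, Ccna2 in 40.3%, Mki67 in 39.2% and Tpx2 in 33.3%. Outside the dividing cells these shares were at most 2.87%. The number of rule genes detected in a cell varied, with 98 cells at 2 genes, 197 at 3 or 4, 167 at 5 or more and 25 at all 8. The median dividing cell held 7 UMIs of these genes and the highest held 92. The threshold cut through a continuum. Replication genes, which the rule did not use, stood at 5.12 UMIs per 10000 in the 6233 cells with no UMI of the rule genes, at 9.28 in cells with 1 UMI and at 13.7 in the 149 cells with 2. The 88 dividing cells with exactly 3 UMIs stood at 21.0, and the 170 with 10 or more at 30.2. These values show how the cells just inside and just outside the rule compare and are given without a test, since dividing cells were also deeper.

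The share of dividing cells ranged from 0.928% of kept cells in p95 tumour 2 to 17.7% in multiparous tumour 4, with a median of 5.40% over the 12 tumours. Among the d16 tumours, 27 of 363 cells were dividing in tumour 1 (7.44%), 43 of 1013 in tumour 2 (4.24%) and 55 of 1045 in tumour 3 (5.26%). In the p95 tumours 1 to 5 the counts were 2 of 177 (1.13%), 7 of 754, 35 of 632 (5.54%), 23 of 467 (4.93%) and 52 of 573 (9.08%). Multiparous tumours 1 to 4 held 51 of 683 (7.47%), 80 of 729 (11.0%), 26 of 586 (4.44%) and 61 of 344 dividing cells. Exact 95% binomial intervals, which cover counting error only, ran from 13.8 to 22.2% in multiparous tumour 4 and from 0.374 to 1.90% in p95 tumour 2. Those of p95 tumours 1 and 2 overlapped each other, and that of multiparous tumour 4 overlapped no other tumour.

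**Figure D1:**
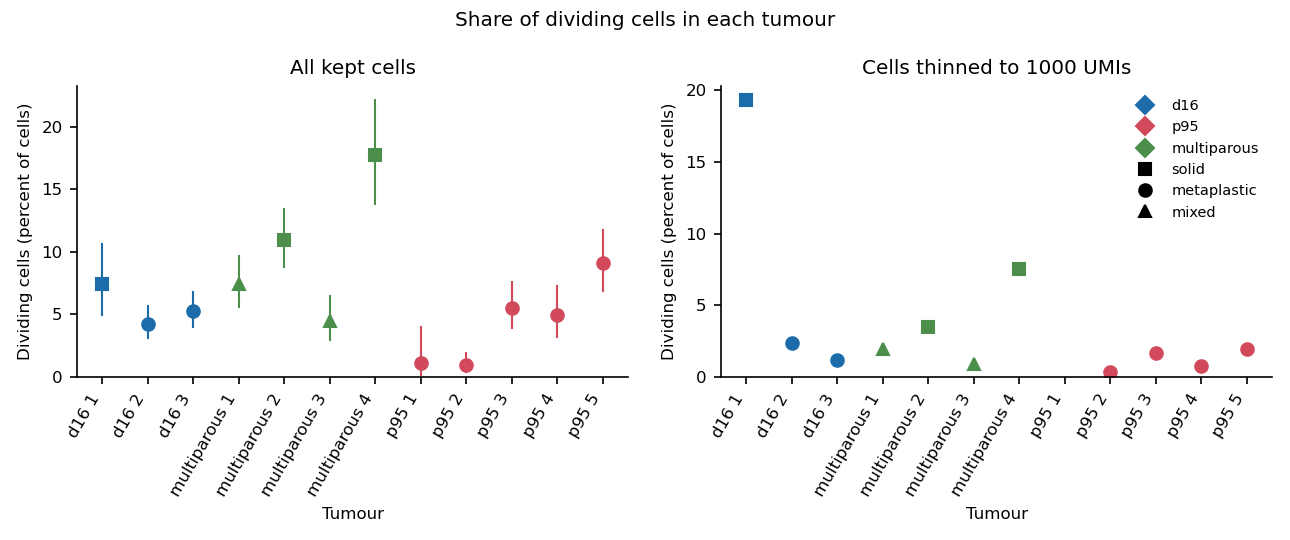
Left, the share of kept cells that were dividing (percent) in each of the 12 tumours, with bars for the exact 95% binomial interval. Right, the share among cells of at least 1000 UMIs after each was thinned to that number, for 11 tumours. Colour gives the group (blue d16, red p95, green multiparous) and shape the histology (square solid nodular, circle metaplastic, triangle mixed). Multiparous tumour 4 is highest on the left at 17.7%, and d16 tumour 1 is highest on the right at 19.3%.

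Dividing cells were deeper than the other cells of their tumour in 12 of 12 tumours, by 1.77 to 3.72 times in median UMIs. Over all tumours the medians were 6131 UMIs and 2452.5 genes in dividing cells, against 1951 UMIs and 1001.5 genes in the others. Since a fixed UMI threshold finds more cells where cells are deeper, every cell with at least 1000 UMIs was also thinned to that number, which left out 2136 shallower cells and kept 5230. This cut itself favoured dividing cells, which were deeper. Before thinning, the share in cells of at least 1000 UMIs was 26.1% in d16 tumour 1 and 27.2% in multiparous tumour 4. Over all cells it was 7.44% and 17.7% there, while multiparous tumour 2 stood at 11.0% in both. The thinned share was 19.3% in d16 tumour 1, whose median kept cell held 449 UMIs and of which only 46 cells were deep enough. It was 7.54% in multiparous tumour 4, 3.50% in multiparous tumour 2, and 0.312 to 2.37% in the other 8 tumours with a value. The summed level of the 8 genes over all kept cells, which needs no threshold per cell, was 10.5 UMIs per 10000 in d16 tumour 1, 5.89 in multiparous tumour 4, 3.38 in multiparous tumour 2 and 0.522 to 2.63 in the other 9. Thus the 3 solid nodular tumours were highest on both measures, and d16 tumour 1 was highest on both but not in the unthinned share. Predicted doublets made up 4.98% of dividing and 4.92% of other cells.

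Most dividing cells were epithelial. A cell was assigned to the epithelial (Epcam, Krt8 and Krt18), immune (Ptprc) or mesenchymal (Col1a1) lineage when that lineage's UMIs were at least 2 times the sum of the others. This gave 341 epithelial, 60 mesenchymal and 32 immune dividing cells, with 11 of mixed signal and 18 with none. Of the assigned cells, 78.8% of dividing and 65.1% of other cells were epithelial. The mesenchymal share was 13.9% of dividing against 23.2% of other cells, and the immune share 7.39% against 11.7%. In each of the 10 tumours with at least 10 dividing cells the epithelial share was higher in dividing cells, by 13.0 ± 8.94 percentage points (SD, n = 10). The differences ran from 4.51 points in d16 tumour 1, where all 23 assigned dividing cells were epithelial, to 33.2 points in multiparous tumour 1, at 82.4% against 49.2%. Because the same cells defined the groups, this is a description. With wider lists of lineage genes the mean difference was 20.5 points, and after thinning, which left 4 tumours, it was 14.7.

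**Figure D2:**
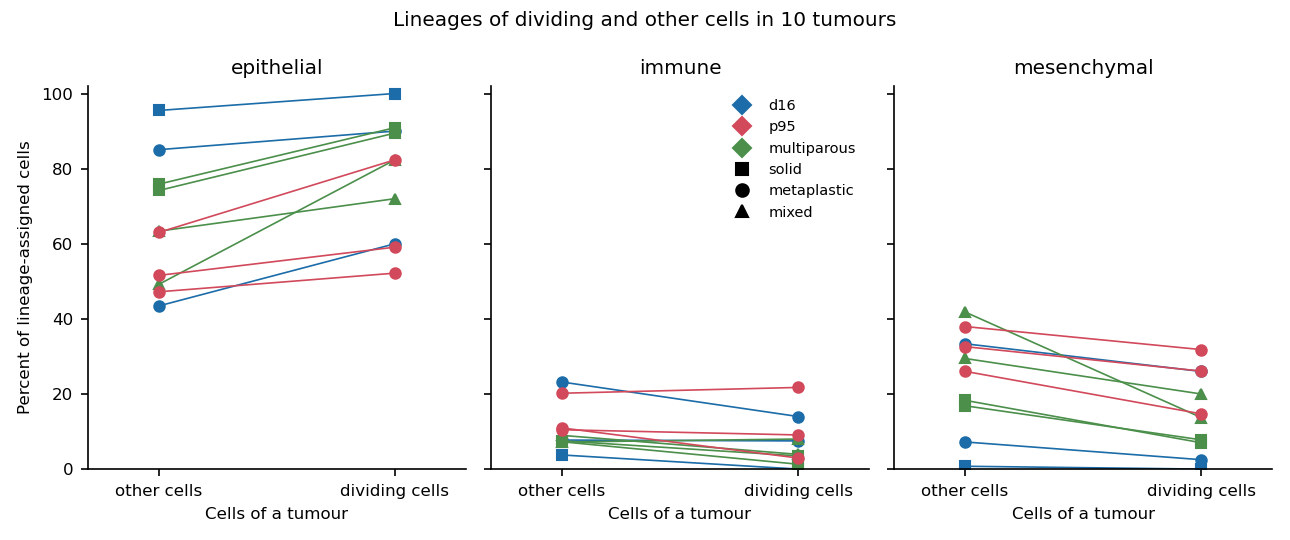
Share of lineage-assigned cells (percent) that were epithelial, immune or mesenchymal in the other and the dividing cells of 10 tumours, with a line joining the values of a tumour. Colour gives the group and shape the histology. The epithelial share is higher in dividing cells in 10 of 10 tumours.

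Turned round, and pooled over tumours, 8.55% of epithelial cells were dividing (exact 95% interval 7.70 to 9.46), against 4.66% of immune cells (3.21 to 6.51) and 4.41% of mesenchymal cells (3.38 to 5.64). These intervals cover counting error only and not the spread between tumours. Tumour by tumour, the epithelial share was above the immune share in 11 of 12 tumours and above the mesenchymal share in 12 of 12, some of which held 10 or fewer cells of the other lineage. With at least 20 cells of each lineage, the counts were 8 of 9 and 10 of 10. The exception was p95 tumour 2, with 2 of 83 immune cells (2.41%) and 0.955% of epithelial cells. Cells of the 3 lineages had median depths of 2213 (epithelial), 2094 (immune) and 4018 UMIs (mesenchymal), and the part of depth in these shares was not tested. The highest value was 24.4% of epithelial cells in multiparous tumour 4. In p95 tumour 5, 10 of 93 immune cells were dividing (10.8%), close to the 11.0% of its epithelial cells. With the wider lists, which assign more low-depth cells to the immune lineage, 2.82% of immune cells were dividing.

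Macrophage genes were detected in most immune dividing cells, as in the other immune cells. A gene of the macrophage list was detected in 28 of 32 cells, against 80.0% of the 655 other immune cells and 118 of 341 dividing epithelial cells (34.6%). Lyz2 (lysozyme) was found in 19 and Csf1r, the receptor for the macrophage growth factor CSF1, in 18. In other immune cells these 2 genes were found in 59.8% and 60.3%. Cd68 and C1qa were each found in 15 of the 32. The list summed to 189 UMIs per 10000 in the dividing and 364 in the other immune cells. Free RNA can leave such UMIs in any cell. In the 341 dividing epithelial cells Cd68 was found in 27 (7.92%), Lyz2 in 10, Csf1r in 9 (2.64%) and C1qa in 8. Median depth was 6347 UMIs in these cells and 4470 in the dividing immune cells. The part of free RNA in these values was not tested. T and NK cell genes were detected in 12 of the 32, against 30.5% of the other immune cells and 5 of 341 dividing epithelial cells (1.47%). Gzmb (granzyme B) was found in 6 of the 32 and Cd3e in 3, each against 2 of 341. No UMI of the B cell list was found in the 32 cells, which allows up to 9.38% of cells with such a UMI. Since 5 of the 655 other immune cells held one, this sets no limit on B cells. Of the 60 mesenchymal dividing cells, Col3a1 was detected in all 60, Pdgfrb in 50, the proteoglycan gene Dcn in 47 and Pdgfra in 38. In dividing epithelial cells the same genes were detected in 18 (5.28%), 4, 12 (3.52%) and 7 (2.05%) of 341. The pericyte gene Rgs5 was found in 6 mesenchymal cells, against 2 of the 341, and Ptprc in 2. Of the 18 dividing cells with no lineage signal, 8 held macrophage and 6 held endothelial list genes, against 34.6% and 4.40% of dividing epithelial cells.

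Dividing cells of the 3 lineages differed in how much of the replication programme they carried beside mitosis. The replication genes (licensing and DNA synthesis lists) stood at 52.1 UMIs per 10000 in immune, 26.8 in epithelial and 23.1 in mesenchymal dividing cells, while mitotic genes stood at 69.4, 58.3 and 64.3. Replication levels in dividing immune cells exceeded those of dividing epithelial cells in 9 of 10 tumours. In d16 tumour 3 the values were 74.6 in 7 immune and 24.5 in 30 epithelial cells, and in p95 tumour 5 they were 47.8 in 10 and 24.8 in 24. The exception was p95 tumour 2, at 27.0 in 2 immune and 27.5 in 4 epithelial cells. The other immune values rest on 1 to 3 cells each, and the comparison is given without a test. Mesenchymal exceeded epithelial dividing cells in 3 of 9 tumours. Non-dividing immune cells also stood highest, at 7.58 against 6.08 in epithelial and 3.97 in mesenchymal cells.

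**Figure D3:**
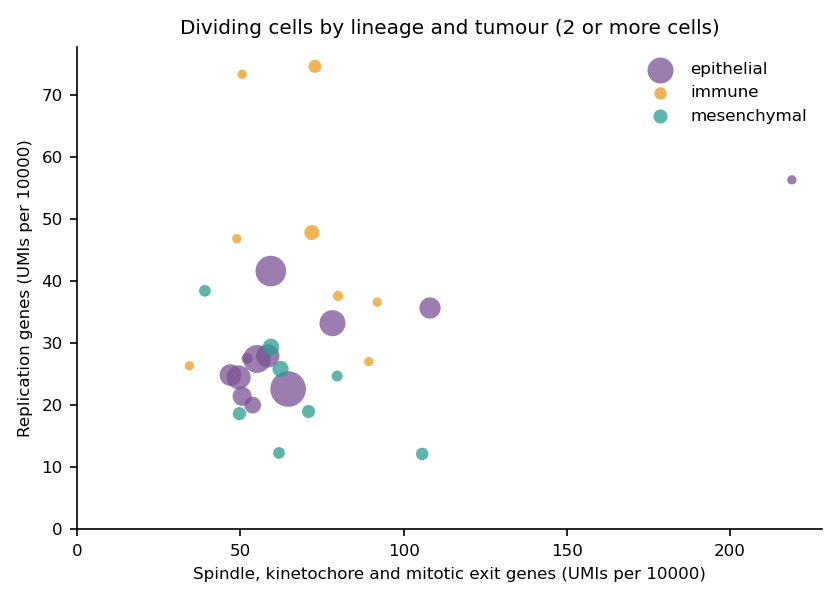
Replication genes (vertical axis) against spindle, kinetochore and mitotic exit genes (horizontal axis), both in UMIs per 10000 UMIs, in dividing cells, with 1 point for each tumour and lineage that had at least 2 cells and the area growing with the number of cells. Immune points lie mostly above the epithelial points of the same tumours, as in d16 tumour 3 at 74.6 against 24.5.

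Beyond the 8 genes that chose the cells, the genes of the cell cycle lay higher in dividing cells in nearly every list. Levels are CPM (UMIs per 1000000 UMIs) summed over the dividing or other cells of a tumour, and ratios are on a log2(CPM + 10) scale, which understates low genes. Each list is given first as the sum of all its genes, in UMIs per 10000, with no filter on level. The spindle and cytokinesis list summed to 33.6 to 73.4 in dividing cells (median 39.2 over 10 tumours) and to 7.72 to 15.3 in other cells (median 9.38). Kinetochore and checkpoint genes stood at 8.07 to 25.0 (11.8) against 1.18 to 6.66 (1.76), and histone, condensin and chromatin genes at 13.9 to 34.0 (16.0) against 3.22 to 12.2 (4.16). DNA synthesis genes stood at 13.0 to 24.7 (17.4) against 2.91 to 12.7 (3.41), and replication licensing genes at 7.36 to 16.3 (9.68) against 1.57 to 6.09 (2.18). Other cyclins and CDKs came to 10.9 to 22.0 (19.6) against 4.86 to 12.0 (8.24), mitotic exit genes to 6.18 to 11.7 (7.56) against 3.56 to 4.76 (3.83), and E2F and DREAM regulators to 4.96 to 7.34 (6.65) against 2.86 to 5.30 (3.48). All 8 sums were higher in the dividing cells of 10 of 10 tumours.

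Gene by gene, over the 17542 genes outside the rule with any UMI in these cells, 3.64% were higher in dividing cells in all 10 tumours (0.986% also by a median of over 2-fold) and 2.16% were lower. These shares belong to the contrast that defined the cells, so they are printed without a test and nothing is read from them. Of all list genes with a UMI, 25 of 36 spindle genes (median log2 ratio 1.88, against 0 over all genes), 16 of 22 kinetochore genes (1.58) and 14 of 21 histone and chromatin genes (1.27) were higher in all 10 tumours. The counts were 17 of 29 for DNA synthesis (1.40), 7 of 18 for licensing (1.38), 9 of 20 for other cyclins and CDKs (1.06) and 6 of 11 for mitotic exit (0.65). Among E2F and DREAM regulators they were 3 of 17 (0.61), namely Foxm1, Rbl1 and Lin54.

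**Figure D4:**
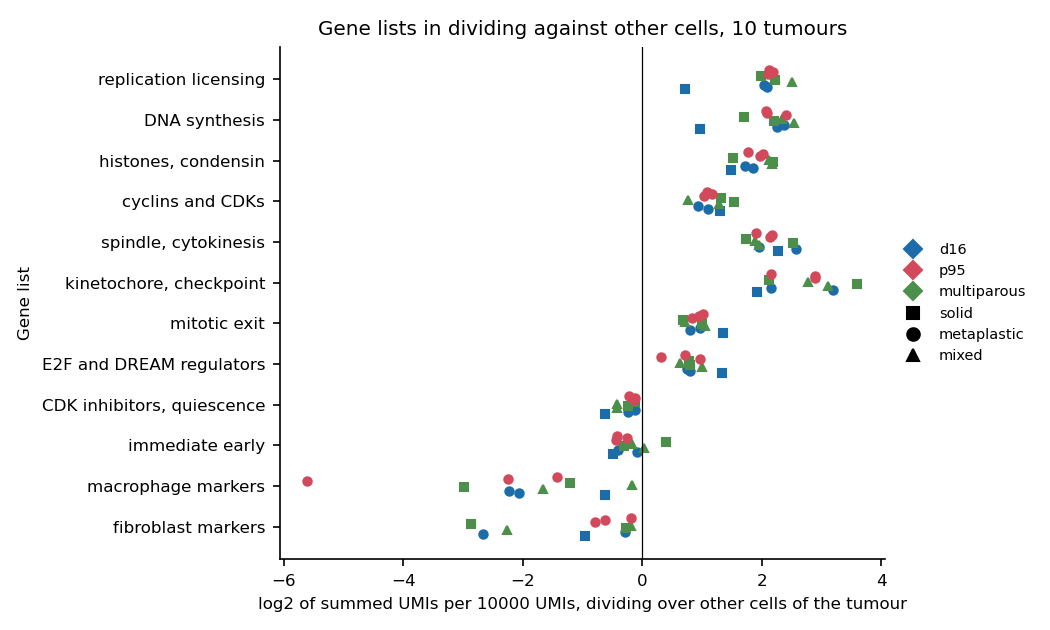
Log2 ratio of the summed UMIs per 10000 of each gene list in dividing over other cells, with 1 point per tumour for 10 tumours. The lists of replication and mitosis lie above 0 in all 10 tumours, while the CDK inhibitor, macrophage and fibroblast lists lie below 0 in all 10.

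Among the mitotic genes, Ccnb1, the cyclin that partners Cdk1 at mitotic entry, stood at 34.7 to 167 CPM in dividing cells (median 87.1 over 10 tumours) and at 0 to 26.0 in other cells (median 0.670). The groups did not overlap, and the highest value of each was in d16 tumour 1. Cenpa, the histone H3 variant of centromeres, stood at 170 to 601 CPM in dividing cells (median 284) against 19.7 to 103 (median 44.9). Cdca8, a chromosomal passenger protein, stood at 73.3 to 208 (median 131) against 1.18 to 20.8 (median 6.59). Further genes of the largest ratios were the cytokinesis genes Racgap1 (log2 ratio 3.09), Prc1 (2.84) and Anln (2.82), the spindle genes Tacc3 (2.89), Knstrn (2.66) and Kif11 (2.43), the kinases Pbk (2.99), Aurkb (2.41) and Plk1 (2.37), and the checkpoint and exit genes Mad2l1 (2.51) and Cdc20 (2.45). Cdca3 (3.03), Iqgap3 (2.60), the condensin gene Smc2 (2.46) and C330027C09Rik (2.37) completed the 20 with 2810417H13Rik and Rrm2. These 20 were picked among genes higher in all 10 tumours, so their direction is no finding. Tubulins were the most abundant members of the spindle list, with Tubb5 at 1363 ± 411 against 397 ± 77.3 CPM (SD, n = 10).

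The rule chose cells by genes mainly of the later wave, so the order of the list ratios given here is no finding. The median log2 ratios of DNA synthesis (1.40) and licensing genes (1.38) lay below those of spindle (1.88) and kinetochore genes (1.58). They lay above that of mitotic exit genes (0.65), and single S-phase genes varied. The largest of all was 2810417H13Rik, listed by RefSeq as a synonym of the PCNA-associated factor Pclaf, at 97.3 to 214 CPM in dividing cells (median 133) against 2.30 to 67.6 (median 5.67), a log2 ratio of 3.16. Rrm2, the regulated subunit of ribonucleotide reductase, stood at 110 to 215 CPM (median 172) against 5.97 to 75.1 (median 8.22). Its other subunit, Rrm1, had a log2 ratio of 1.99. Pcna, the sliding clamp of DNA polymerase, stood at 175 ± 70.7 CPM in dividing and at 80.7 ± 46.7 in other cells, a log2 ratio of 0.97. The MCM helicase genes Mcm5 (2.21) and Mcm3 (1.81) were higher in all 10 tumours, and Mcm6 (2.15) and Mcm4 (1.34) in 9.

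Regulators of cell cycle entry followed the pattern less, in cells chosen by genes of the later wave. Foxm1, which drives mitotic genes, had a log2 ratio of 2.27 and Tfdp1, the E2F partner, 0.93. Myc stood at 147 ± 76.3 CPM in dividing and 177 ± 78.0 in other cells and was higher in 3 of 10 tumours. Ccnd1, the cyclin of G1, was higher in 9 of 10 tumours with a log2 ratio of 0.49, and Cdk4 in 10 with 0.88. Of 16 CDK inhibitor and quiescence genes, Cdkn2c, which encodes the p18 inhibitor, was higher in all 10 tumours and Btg1, an antiproliferative gene, was lower in all 10 (-0.67). Cdkn1a, which encodes the p21 inhibitor, was nearly level at 607 ± 269 against 624 ± 218 CPM. Egfr stood at 40.2 ± 17.1 against 73.7 ± 32.2 CPM and was lower in all 10 tumours, whereas its ligand Areg was higher in 9. Within epithelial-lineage cells alone Cdk4 (log2 ratio 0.81) was higher and Btg1 (-0.25) lower in all 10 tumours. There Ccnd1 (0.06) was higher in 6 tumours and lower in 4, Areg (0.02) in 5 and 5, Egfr (-0.30) in 4 and 6, and Cdkn1a (0.00) in 5 and 5.

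Lists of macrophages and of antigen presentation held genes lower in dividing cells. Of macrophage list genes, 5 of 12 were lower in all 10 tumours (median log2 ratio -1.43), as were 4 of 7 MHC class II genes (-1.16), namely Cd74, H2-Aa, H2-Ab1 and H2-DMb1, 3 of 15 genes of epithelial-mesenchymal transition (-0.56), namely Zeb2, Fn1 and Itga5, and the fibroblast gene Dcn of 12 (-0.93). The 10 genes of the lowest ratios among those lower in all tumours were the chemokines Ccl3 (-3.32), Ccl4 (-2.80), Ccl5 (-2.43) and Ccl8 (-2.23), the macrophage elastase Mmp12 (-2.66), Apoe (-2.35), Dcn (-2.31), H2-Aa (-2.24), Clec4d (-2.22) and complement C3 (-2.21). Cell types differ in number between the 2 sets of cells. Within epithelial-lineage cells Ccl3 (-1.82) and Apoe (-2.80) were lower in 10 of 10 tumours, while the other 8 were not one-sided in all 10. Ccl4 was higher in 1 and lower in 9 there, Mmp12 and Ccl5 in 3 and 7, H2-Aa in 1 and 9, and Dcn in 1 and 8. Ccl8 was lower in 8, and Clec4d and C3 in 9, with the other tumours level. In the same cells macrophage list genes summed to 0.326 to 6.52 UMIs per 10000 in dividing and to 2.28 to 33.7 in other epithelial cells. The part of free RNA or attached cells in these values was not tested.

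Among milk proteins, Csn2 (beta-casein) stood at 2200 ± 3550 CPM in dividing and 4620 ± 8802 in other cells, with log2 ratios from -2.89 to 1.07. Within epithelial cells its median log2 ratio was -1.66, that of Csn1s1 -1.46 and that of Csn3 0.05. The summed milk list was higher in dividing epithelial cells in 5 tumours and lower in 5. In epithelial cells the spindle list summed to 32.2 to 70.5 UMIs per 10000 in dividing (median 38.7) against 7.75 to 15.4 in other cells (11.2), and DNA synthesis genes to 11.8 to 25.2 (17.1) against 3.22 to 12.7 (3.89). Both sums were higher in 10 of 10 tumours. Gene by gene, 22 of 36 spindle and 13 of 29 DNA synthesis genes were higher in all 10, with median log2 ratios of 1.79 and 1.31. Of all 16681 genes with a UMI there, 2.27% were higher in all 10 (0.761% also by over 2-fold) and 1.08% were lower. Over all lineages, stress and immediate early genes, a sign of dissociation, had a median log2 ratio of -0.31 with 0 of 12 genes one-sided in all 10 tumours. Ribosomal protein genes stood at 0.22, with 2 of 15 higher in all 10. Within epithelial cells the medians were -0.29 and 0.14.

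The share of dividing cells was compared between the study's conditions by two-sided exact permutation tests over tumours, with p values adjusted over the 6 comparisons. None had an adjusted p under 0.05. Solid nodular tumours had 12.0 ± 5.23% dividing cells (SD, n = 3) and metaplastic tumours 4.44 ± 2.80% (n = 7), a difference of 7.60 points (exact p = 0.0333, adjusted 0.0970, smallest possible 0.0167). The ranges overlapped, at 7.44 to 17.7% against 0.928 to 9.08%. After thinning, the solid tumours stood at 10.1 ± 8.24% (n = 3) and the metaplastic ones at 1.37 ± 0.770% (n = 6). The ranges did not overlap (exact p = 0.0238, the smallest this design can give, adjusted 0.0714). The tables came in 2 layouts, with gene names intact or partly turned into dates, and the difference had the same direction in each, at 5.34 points (1 against 3 tumours) and 8.15 points (2 against 4). Among epithelial cells alone the shares were 15.3 ± 8.25% and 6.05 ± 3.73% (exact p = 0.05, adjusted 0.0970). Of the 3 solid tumours 2 were multiparous with the HER2 form unknown, and all 7 metaplastic tumours were nulliparous. So histology and parity cannot be told apart here or in the expression comparison of these tumours. The HER2 form is tied to histology too, as all p95 tumours were metaplastic and the only solid nulliparous tumour was d16 tumour 1.

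Multiparous tumours had 10.2 ± 5.72% dividing cells (n = 4) and nulliparous ones 4.82 ± 2.80% (n = 8), a difference of 5.33 points (exact p = 0.0646, adjusted 0.0970, smallest possible 0.00404). Among epithelial cells the values were 14.2 ± 7.71% and 6.33 ± 3.55% (exact p = 0.0485, adjusted 0.0970). The multiparous tumours were also deeper, with a mean of the median UMI counts of 3130 against 1836. After thinning, the difference was -0.46 points in all cells (exact p = 0.806, 4 against 7 tumours) and 0.21 points in epithelial cells (exact p = 0.764). The difference of means in all cells thus turned in direction. The medians did not, at 2.73% in multiparous and 1.65% in nulliparous tumours. The nulliparous mean includes d16 tumour 1 at 19.3%, from 46 cells. All 4 multiparous tumours share a file layout with 4 nulliparous ones, and within it the unthinned difference was 3.95 points. The other layout held no multiparous tumour.

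The d16 and p95 tumours had 5.65 ± 1.63% (n = 3) and 4.32 ± 3.40% (n = 5) dividing cells, a difference of 1.33 points (exact p = 0.607, adjusted 0.643, smallest possible 0.0357). Within the layout with intact names d16 was higher by 4.81 points (2 against 2 tumours), and within the other it was lower, at -1.25 points (1 against 3). Among epithelial cells the difference was 1.32 points (exact p = 0.643), with 5.31 and -0.72 points within the layouts. A number in the titles is shared by 2 pairs of tumours of the 2 forms. The share was 4.24% in d16 tumour 2 and 0.928% in its p95 partner, tumour 2, and 5.26% in d16 tumour 3 and 4.93% in p95 tumour 4. It was higher in d16 in both pairs, by 1.83 points on average, and with 2 pairs the exact sign-flip p was 0.5, the smallest it can be.

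The expression of dividing cells was then compared between conditions by summing their UMIs per tumour and fitting edgeR's quasi-likelihood model in the 10 tumours with at least 10 dividing cells, so that p95 tumours 1 and 2, with 2 and 7 dividing cells, dropped out. Between d16 and p95 (3 against 3), 2 of 5055 genes passed an adjusted p of 0.05 (0.0396%), and 305 (6.03%) had an unadjusted p under 0.05. Rn45s, the precursor transcript of ribosomal RNA, stood at 753, 1969 and 681 CPM in the d16 tumours 1 to 3. In p95 tumours 3 to 5 it stood at 39.7, 37.9 and 41.8 CPM. It was higher in d16 by 4.82 ± 0.56 on the log2 scale (SE, edgeR adjusted p = 0.0226). Rn45s did not pass without predicted doublets (edgeR adjusted p = 0.571). It was not among the genes tested in epithelial dividing cells only. In the other cells of the same tumours the d16 values were 796, 5730 and 276 CPM and the p95 values 219, 647 and 273, so the ranges overlapped there. Multiparous tumour 4 reached 8712 CPM in its other cells.

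Serpinb2, a serine protease inhibitor also called PAI-2, gave 0, 0 and 4.45 CPM in dividing cells of d16 tumours 1 to 3 and 286, 147 and 167 CPM in p95 tumours 3 to 5. This was a log2 fold change of -5.79 ± 0.68 (edgeR adjusted p = 0.0226), from 2 UMIs in all against 163. The ratio of the counts was 61.2, with an exact 95% interval of 16.7 to 509 for counting error alone. The 0 of d16 tumour 1 rests on 27 dividing cells of median 888 UMIs. Each UMI there weighs far more in CPM than in the other tumours used. In other cells it stood at 28.6 ± 35.5 CPM in the d16 tumours (n = 3) and at 274 ± 138 in p95 tumours 3 to 5, but p95 tumours 1 and 2 stood at 19.4 and 31.4. Neither gene passed with file layout as a covariate (edgeR adjusted p = 0.187 for Rn45s and 0.598 for Serpinb2). Without d16 tumour 1, or without p95 tumour 3, no gene passed, and without d16 tumour 2 only Rn45s did. Without d16 tumour 3 edgeR called 73 genes, and without p95 tumour 4 it called 25.

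The next genes by p value did not pass. Mtmr14, a phosphoinositide phosphatase, stood at 282, 149 and 234 CPM in d16 against 19.9, 33.2 and 52.9 in p95 tumours (edgeR adjusted p = 0.240). Ly6d, a surface protein of squamous and lymphoid cells, stood at 0, 0 and 22.3 against 628, 246 and 256 CPM (adjusted p = 0.206, edgeR). For Hp, which encodes haptoglobin, the values were 0, 7.08 and 8.91 against 219, 280 and 69.7 CPM (edgeR adjusted p = 0.206). The groups did not overlap for any of the 5, as for 13.8% of all genes tested. The 0 values of Ly6d and Hp in d16 tumour 1 rest on its 27 dividing cells of median 888 UMIs.

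Between solid nodular and metaplastic tumours (3 against 5), no gene of 6340 passed with edgeR, while 727 (11.5%) had an unadjusted p under 0.05 and DESeq2 called 90, of which 88 were lower in solid tumours. The 5 genes of smallest p were all lower in solid tumours without overlap, which 7.03% of genes showed in either direction, and each had an edgeR adjusted p of 0.215. Igfbp3, which binds insulin-like growth factors, stood at 0, 48.7 and 6.63 CPM in d16 tumour 1 and multiparous tumours 2 and 4. In the metaplastic tumours it stood at 193 and 588 CPM (d16 tumours 2 and 3) and 689, 500.3 and 899 CPM (p95 tumours 3 to 5). Lgals3, which encodes galectin-3, stood at 329 ± 97.9 (n = 3) against 1462 ± 442 CPM (n = 5), and Amotl2, an angiomotin family protein of cell junctions, at 22.9 ± 5.03 against 81.2 ± 9.10. The values for 1500015O10Rik were 10.1 ± 14.7 against 582 ± 353 CPM. Pmaip1, which encodes the cell death protein Noxa, rested on 1 UMI in solid against 91 in metaplastic tumours, a ratio of 54.9 (exact 95% interval 9.61 to 2193). In d16 tumour 1, Igfbp3, 1500015O10Rik and Pmaip1 had 0 CPM, from 27 dividing cells of median 888 UMIs. Each UMI there weighs far more in CPM than in the other tumours used. In the other cells these 5 genes were also lower on average in solid tumours, such as Lgals3 at 545 ± 201 (n = 3) against 1733 ± 395 CPM (n = 5). Without d16 tumour 2, edgeR called 137 genes, of which 127 were lower in solid tumours.

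**Figure D5:**
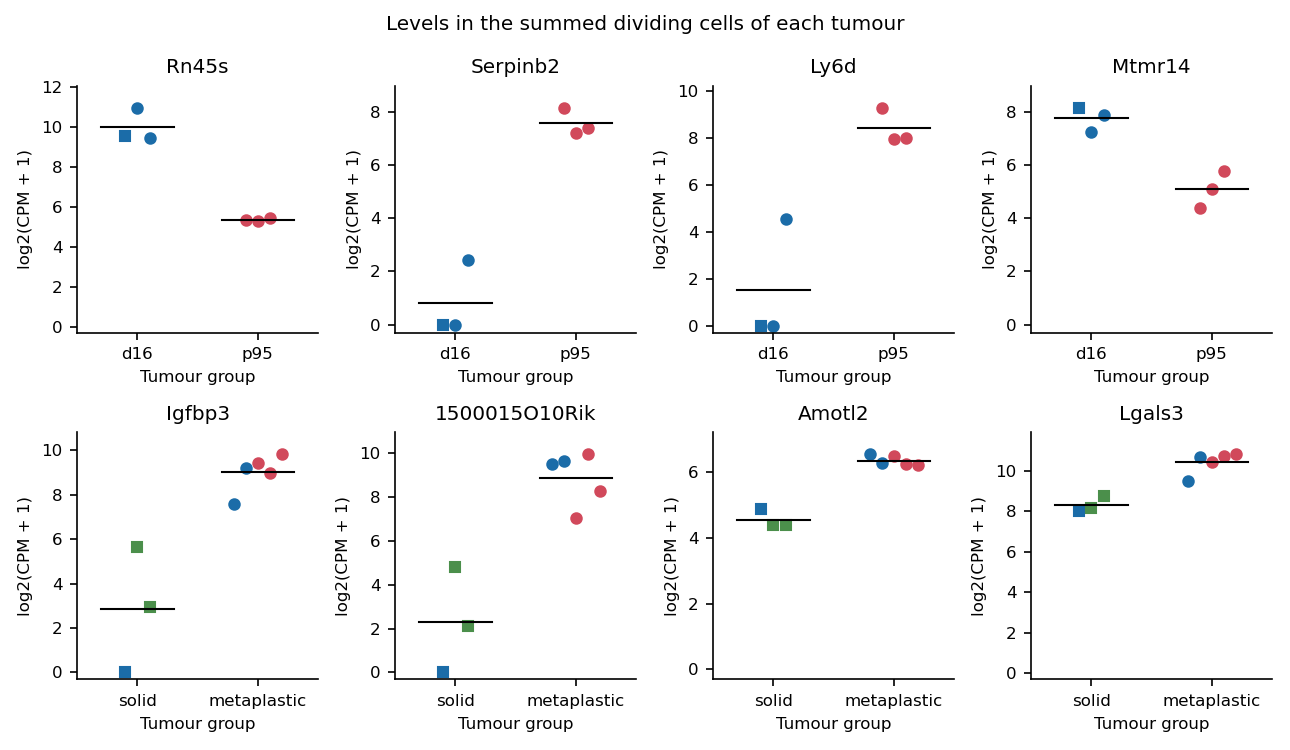
Levels in dividing cells, as log2(CPM + 1), of 4 genes between d16 and p95 tumours (top) and 4 between solid nodular and metaplastic tumours (bottom), with 1 point per tumour and a line at each group mean on that scale. Colour gives the group and shape the histology. Rn45s and Serpinb2 separate the d16 from the p95 tumours, at 681 to 1969 against 37.9 to 41.8 CPM for Rn45s.

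Between multiparous and nulliparous tumours (4 against 6), no gene of 6090 passed with edgeR, with 272 (4.47%) at an unadjusted p under 0.05 and 4 called by DESeq2. Pgf, placental growth factor, stood at 50.9, 37.0, 26.6 and 44.0 CPM in multiparous tumours 1 to 4 and at 85.3 to 179 CPM (median 145) in the nulliparous ones. Psmb9, an immunoproteasome subunit, stood at 11.0 ± 3.38 against 85.5 ± 42.5 CPM (edgeR adjusted p = 0.134 for both). The processed pseudogene Gm6548 stood at 154 ± 29.9 against 26.0 ± 20.8 CPM (edgeR adjusted p = 0.134). Reads of a pseudogene can belong to its parent gene, so this value and that of Rps19-ps3, at 89.1 to 271 against 0 to 85.3 CPM, are uncertain. Groups did not overlap for these 4 genes, as for 1.0% of all genes, and overlapped for Lgals3bp (45.0 ± 6.47 against 126 ± 52.2 CPM).

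No gene of the division lists passed in any of the 3 edgeR comparisons. For parity the median log2 fold changes were 0.07 for 12 licensing, -0.06 for 20 DNA synthesis, 0.01 for 26 spindle and -0.13 for 12 kinetochore genes, against 0.03 for all genes. Solid against metaplastic gave 0.03, 0.04, 0.25 and 0.34 for the same lists (all genes -0.03). For d16 against p95 they were 0.07, 0.42, 0.25 and 0.44 (all genes -0.06), with 11 of 11 kinetochore genes higher in d16, 2 of them at an unadjusted p under 0.05, a level that 6.03% of all genes reached. The dividing cells of d16 tumour 1 had the highest kinetochore sum, 25.0 UMIs per 10000, against 18.9 and 9.40 in the other d16 and 10.4 to 11.1 in the p95 tumours used. So the d16 values overlapped those of p95. The rule asks for 3 UMIs at any depth, and the dividing cells of d16 tumour 1 had a median of 888 UMIs. Their rule genes summed to 50.1 UMIs per 10000. The sums were 22.9 and 11.2 in the other d16 and 12.3 to 14.2 in the p95 tumours used. The rule genes gave median log2 fold changes of -0.19 for parity, 0.72 for solid against metaplastic and 0.89 for d16 against p95. The part of this selection in the division lists was not tested. Among other division lists, cyclins and CDKs gave 0.27 for parity (11 of 14 genes higher) and 0.53 for solid against metaplastic (12 of 14). For d16 against p95 they gave 0.004 (4 of 8). In the same order, histone and chromatin genes gave 0.05, 0.39 and 0.15. CDK inhibitor and quiescence genes gave -0.13, -0.56 and -0.01.

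Lists of cell identity were also counted between the histologies, where 11.5% of all genes had an unadjusted p under 0.05. All 7 basal genes tested were lower in solid tumours (median log2 fold change -3.62, 6 at an unadjusted p under 0.05), as were 6 of 6 MHC class II genes (-4.49, 5 unadjusted), 4 of 4 squamous genes (-3.50, 3 unadjusted) and 11 of 12 genes of epithelial-mesenchymal transition (-1.61, 6 unadjusted). None of these genes passed after adjustment. Of macrophage genes 4 were higher and 4 lower (0.07), of milk genes 6 of 8 were higher (0.82), and of luminal genes 3 were higher and 7 lower (-0.46). In the dividing epithelial cells of the solid tumours the basal list summed to 0.383 (d16 tumour 1), 1.59 and 2.21 (multiparous tumours 2 and 4) UMIs per 10000. In those of the metaplastic tumours it summed to 2.15 and 18.2 (d16 tumours 2 and 3) and 257, 14.5 and 137 (p95 tumours 3 to 5), so only d16 tumour 2 fell among the solid values. MHC class II in dividing epithelial cells was 1.92, 1.64 and 0.0761 in the solid tumours and 0.611 to 35.1 in the metaplastic ones, and the ranges overlapped. Fibroblast genes were lower too, 10 of 10 (-1.99), and mesenchymal-lineage cells made up 0 of 23, 6 of 77 and 4 of 57 assigned dividing cells in the solid tumours. In the metaplastic ones they made up 1 of 40 and 13 of 50 (d16 tumours 2 and 3) and 5 of 34, 7 of 22 and 12 of 46 (p95 tumours 3 to 5). In a sum over cells, fewer cells of a type and less RNA per cell cannot be told apart. Between parities, 6 of 6 MHC class II genes were lower in multiparous tumours (-2.09, 2 unadjusted, against 4.47% of all genes). Between HER2 forms 7 of 7 basal genes were lower in d16 (-2.95, 5 unadjusted, against 6.03%). None of these genes passed in either comparison. The comparisons share tumours and are not separate evidence. All p95 tumours were metaplastic, and d16 tumour 1 was both the only solid d16 tumour and part of the solid group.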

How the data were processed

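Raw UMI counts of single cells were deposited as 1 table for each of 12 tumours, from ddSEQ single-cell isolation and SureCell WTA 3′ libraries per the labels' protocols, which also state that several libraries of a tumour were joined. Seurat 3.0.2 and the build GRCm38 are named in the submitters' processing notes. Aligner, counting and cell calling are not given in the sources used here. Each table has 24421 genes and 0 mitochondrial ones. Dates had replaced 27 gene names in the tables of 8 tumours, and 1948 names in all were restored to their usual form. Of 8486 barcodes, 1120 had under 200 genes, and 29 barcodes occur in more than 1 tumour, at most 3 in any pair. Kept cells had median depths of 449 to 4536 UMIs per tumour, and tumours held 104893 to 4394398 UMIs in kept cells.

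The members, gene lists and tests were chosen with earlier results of these data known. Comparisons of dividing with other cells, and the planned test of their epithelial share, are given without a p, since the same counts defined the cells. UMIs of dividing cells were summed per tumour and fitted with edgeR 4.0.16 (R 4.3.3, filterByExpr, TMM, quasi-likelihood), with Benjamini-Hochberg adjusted p under 0.05. CPM values of the condition comparisons are TMM-normalised, those of dividing against other cells are not. Shares used exact permutation tests (scipy 1.17.1). Thinning drew 1000 UMIs per cell 20 times and needed 20 cells. Doublets were scored with simulated doublets in scanpy 1.11.5 (30 neighbours, 5% called, 363 cells) and kept, and free RNA was not removed. Named genes were, per fit, those passing or, with under 5 passing, these and the 5 of smallest p at an average log2 CPM of at least 4. To them were added the 20 highest and 10 lowest ratios among genes at 50 CPM and one-sided in all 10 tumours, the 8 rule genes, the lineage genes and up to 4 most abundant members per list. Genes named to describe immune, mesenchymal and unassigned cells (Csf1r, Cd68, C1qa, Gzmb, Cd3e, Pdgfrb, Pdgfra, Rgs5), and the few members that make up a small count (Cdkn2c, Rbl1, Lin54, Cd74, H2-Ab1, H2-DMb1, Zeb2, Fn1, Itga5), were chosen after values were seen. Ages and groups are from the labels. On simulated counts with 200 changed genes, the fits recovered 17.5, 85.2 and 100% of genes at log2 fold changes of 1, 2 and 3 for parity (5769 genes), 6.56, 55.9 and 93.3% for the HER2 form (4652) and 8.47, 63.1 and 96.8% for histology (5975). False calls were 8 of 134, 5 of 98 and 3 of 109. The simulated spread depended on the level of a gene only. Spread particular to a gene or tumour was left out, so recovery in the real counts may be lower. Alternatives were DESeq2 1.42.0, limma 3.58.1 (voom), RLE factors, no low-count filter, other cell thresholds, wider lineage lists, epithelial cells only, no doublets, file layout as a covariate, thinning and leaving out each tumour.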

Additional observations from a re-analysis of the deposited data

Results flagged for a closer look

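The share of dividing cells after thinning to 1000 UMIs was 19.3% in d16 tumour 1, far above the other 6 nulliparous tumours with a value (0.312 to 2.37%), and the summed level of the 8 rule genes was 10.5 UMIs per 10000 there, far above the other 7 (0.522 to 2.63). Each gap was above the 95% critical value of Dixon's test (ratios 0.892 and 0.789), in 16 groups tested, of which chance flags about 1 in 20. Both values come from the shallowest tumour (median 449 UMIs per kept cell), and the part of depth in them was not tested. Among the barcodes with under 200 detected genes, which entered no comparison, 4 met the UMI rule for dividing cells.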

How the results depend on the processing

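Of the 6 share comparisons, only that of multiparous with nulliparous tumours in all cells turned in direction under an alternative that used both file layouts, to -0.46 points after thinning, while d16 minus p95 was -1.25 points (all cells) and -0.72 points (epithelial) within the layout with date names, and no share had an adjusted p under 0.05 in any setting run. Leaving out 1 tumour at a time gave 2.81 to 7.24 points for parity, 0.43 to 2.52 for the HER2 form and 4.76 to 9.91 for histology. Among epithelial cells the ranges were 4.40 to 10.6, 0.103 to 2.62 and 4.72 to 12.8. The epithelial share in dividing minus other cells stayed between 10.8 and 13.9 points. The count of called genes for parity (0 with edgeR) was 4 with DESeq2. For the HER2 form (2) it was 16 with DESeq2, 169 with no low-count filter, 1 with limma voom, 0 in epithelial dividing cells only, 1 without predicted doublets, 0 with file layout as a covariate, and 0 to 73 with 1 tumour left out, 73 without d16 tumour 3 and 25 without p95 tumour 4. For histology (0) it was 90 with DESeq2, 106 with no low-count filter, 87 with file layout as a covariate, and 0 to 137 with 1 tumour left out. The causes were not tested. Rn45s and Serpinb2 each passed in 8 of 13 alternatives, with edgeR adjusted p of 0.571 for Rn45s without predicted doublets, and kept their direction in all 13. Of these 8, the fit with at least 20 dividing cells used the same tumours as the main fit and repeats it. Neither gene was among those tested in epithelial dividing cells only. Within the 2 pairs of d16 and p95 tumours that share a title number, a replicate block chosen after seeing the data, d16 was higher by 1.83 points in all cells and 3.02 in epithelial cells (exact p = 0.5 for each). For the expression fits no paired analysis was possible because only 1 pair of tumours in the fits (d16 tumour 3 and p95 tumour 4) shares a title number. Depth limits the fits, as d16 tumour 1 gave 27 dividing cells of median 888 UMIs.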
